A study of Sus scrofa with 6 samples.

Results

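This section describes 9 genes of iron uptake, storage, export, sensing and heme breakdown (TFRC, TF, SLC11A2, FTH1, FTL, SLC40A1, HMOX1, ACO1 and IREB2) in 2 pig cell lines. The genes were listed by name, with the high OBGF400 signal of TFRC already known, and each was taken with all array probe sets that the platform annotation assigns to that one symbol. Of the 9 genes, 8 had such a probe set, 15 probe sets in all, out of 6765 genes and 23999 probe sets tested in the series. The iron exporter ferroportin, SLC40A1, had no probe set with its symbol and was not analysed here.

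OBGF400 is a neuroblast line from porcine olfactory bulb, and PK15 is a long-used kidney line of the pig, given in the labels as non-neuronal and epithelial. Each line was measured on 3 Affymetrix porcine arrays, and each array carried a pool of RNA from untreated monolayer cultures, with 9 cultures per line shared among its 3 pools. Both media held 10% bovine calf serum and the same antibacterial agents, but the base media differed (DMEM/F12/HAM for OBGF400, minimum essential medium for PK15), and the PK15 medium also held amphotericin B. Line, medium and any processing batch cannot be told apart, and each replicate pools cultures of a single line, so the errors below measure the spread between pools and not between animals. Nothing in the labels gives the iron content of either medium.

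The markers matched the labels in part. Of 8 kidney epithelium markers measured, 6, including KRT8, KRT18 and KRT19, were lower in OBGF400, whereas the nephron genes LRP2 and AQP1 were near the bottom of the scale in both lines. Of 6 neuroblast markers measured, NCAM1, MAP2 and UCHL1 were higher in OBGF400, STMN1 was lower, and ELAVL4 and GAD1 lay at the lowest level of the table in both lines. Of the markers of cells specialised in iron, 4 of 6 erythroid genes (HBE1, KLF1, AHSP and ALAS2), 7 of 11 hepatocyte genes (including ALB and TTR) and 4 of 10 macrophage genes (CD163, MRC1, ITGAM and SLC11A1) lay at that level in both lines. The 2 hepatocyte genes that were called, AHSG (-5.19) and APOA1 (-2.26), were lower in OBGF400. Their means were 2.26 and 6.31 in OBGF400 and 7.45 and 8.57 in PK15. The 5 macrophage genes that were called went both ways. AIF1 (-8.58), LAPTM5 (-8.75) and SPI1 (-4.02) were lower in OBGF400, with PK15 means of 10.72, 10.94 and 6.48, and TYROBP (2.34) and CD14 (1.03) were higher. The summed level of the erythroid list was 10.1 to 10.3 (log2) on the OBGF400 arrays and 9.14 to 9.60 on the PK15 arrays, that of the hepatocyte list 6.10 to 6.58 and 9.06 to 9.18, and that of the macrophage list 6.98 to 7.27 and 11.8 to 11.9. The part of these signals in the results below was not tested.

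Cells take up most of their iron bound to transferrin (TF), which the transferrin receptor (TFRC) carries into endosomes. There the iron is released, reduced and passed to the cytosol by the transporter SLC11A2 (DMT1). Iron that is not used is stored in ferritin, a shell of heavy (FTH1) and light (FTL) chains, or leaves the cell through SLC40A1. Iron held in heme is set free by heme oxygenase, HMOX1. The iron regulatory proteins ACO1 (IRP1) and IREB2 (IRP2) bind iron-responsive elements when iron is scarce, which stabilises TFRC mRNA and blocks translation of ferritin mRNA. An array reads mRNA only, so it does not show the control of ferritin by translation.

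Values are log2 signals per probe set. The table has a lower limit of 2.13 (log2), called the floor, and a probe set counts as at the floor in a line when each of its 3 arrays lies within 0.1 of that limit. Differences are OBGF400 minus PK15 with the standard error (SE) from the arrays. Because TFRC was named for this very contrast, the values of the 8 genes are a description. The limma calls counted for them further on are given for completeness and are not used as a test. Signals of different probe sets are not compared with each other as levels, because probes differ in how strongly they bind.

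TFRC was bright in OBGF400 and low in PK15. Its one probe set read 9.19, 9.78 and 9.30 (log2) on the OBGF400 arrays and 2.87, 2.87 and 2.91 on the PK15 arrays. The 3 OBGF400 arrays lay far above the 3 PK15 arrays, without overlap. The means were 9.42 ± 0.32 and 2.88 ± 0.02 (SD, n = 3), a difference of 6.54 (SE 0.18), or 93.0-fold. The PK15 level was above the floor, but 43.2% of the 23999 probe sets had a PK15 mean at or below it. PK15 replicates 1 and 2 held the same value to every digit given, as 42.3% of the probe sets below 4 (log2) and above the floor in PK15 did for a pair of arrays, so the SD of 0.02 is no measure of precision. With 32 added to the linear values, which damps differences from low levels, TFRC differed by 4.19 (log2). In RNA from whole cultures, fewer cells with a transcript and less of it per cell cannot be told apart. A single probe set stands for TFRC, so no second one was at hand to set beside it.

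**Figure D1:**
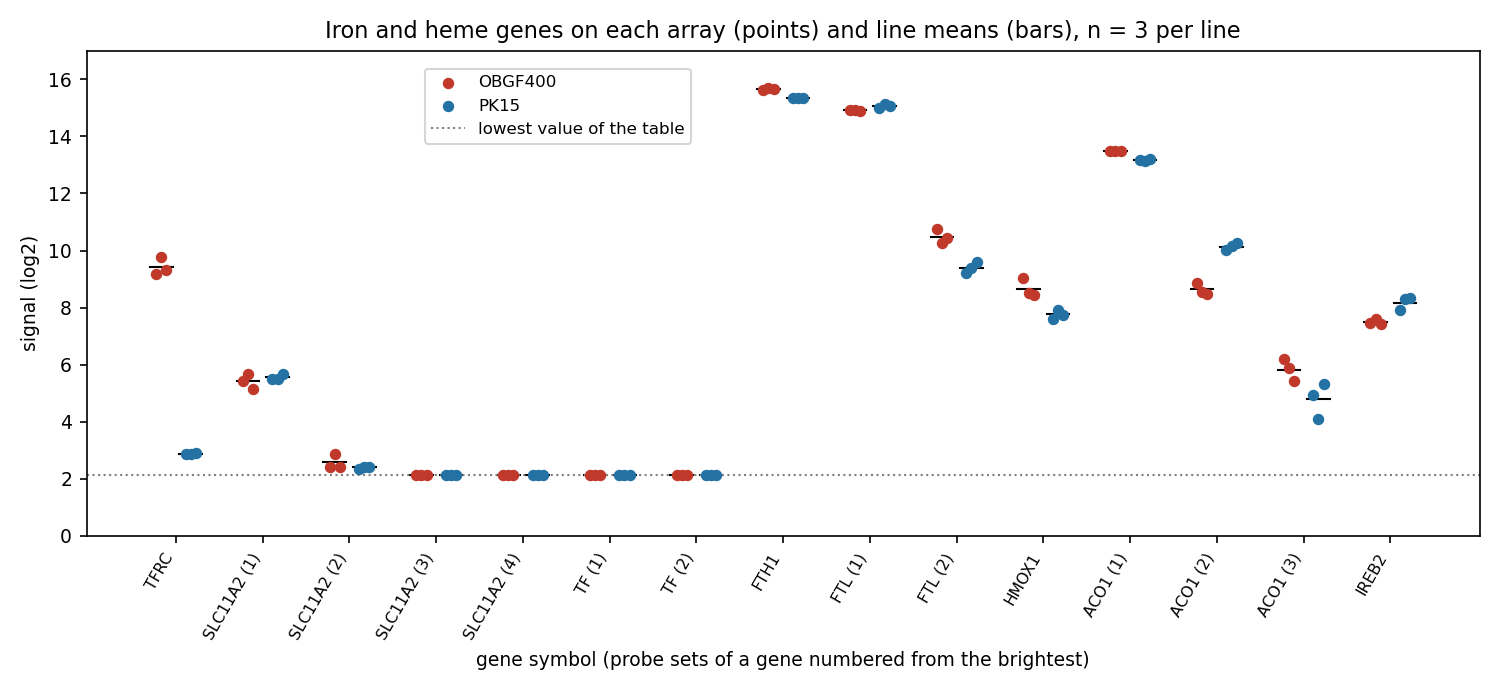
Signal (log2, y axis) of the 15 probe sets of the 8 measured genes (x axis, numbered from the brightest where a gene has several) on each array, with OBGF400 in red, PK15 in blue, bars for the mean of 3 arrays and a dotted line at the lowest value of the table. TFRC sits at 9.19 to 9.78 in OBGF400 and at 2.87 to 2.91 in PK15, whereas the FTH1 probe set and the brightest FTL probe set lie between 14.90 and 15.68 in both lines.

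The other uptake genes did not show such a gap. TF, the iron carrier of plasma, was at the floor on all 6 arrays by both of its probe sets, which the annotation ties to 2 separate Entrez genes that both bear the symbol TF. The brightest SLC11A2 probe set read 5.42, 5.69 and 5.13 in OBGF400 and 5.51, 5.51 and 5.67 in PK15. The arrays of the lines overlapped, and the difference of -0.15 (SE 0.17) was smaller than its error. A second SLC11A2 probe set was low in both lines, at 2.58 ± 0.26 and 2.41 ± 0.04 (SD, n = 3), and also overlapped. The remaining SLC11A2 probe sets were at the floor on all 6 arrays.

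Another 7 probe sets list a member together with a second gene and were counted for neither. The 2 that name TF with LOC100515857 gave unlike readings. One read 3.64, 3.64 and 4.54 in OBGF400 and 9.90, 8.85 and 8.59 in PK15, a difference of -5.18 (SE 0.50), while the other was at the floor in both lines. The annotation does not tell which of the 2 genes that probe set reads, and the TF probe sets with a single symbol showed no signal in either line. Of the 5 probe sets that name FTH1 with HDHD2, 2 were at the floor in both lines. The other 3 differed by 0.00 (SE 0.14), -0.08 (SE 0.04) and -0.20 (SE 0.09), with overlapping arrays.

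The FTH1 probe set and the brighter FTL probe set lay near the top of the scale in both lines and differed little. FTH1, the chain that oxidises iron on entry, read 15.63, 15.68 and 15.67 in OBGF400 and 15.33, 15.36 and 15.36 in PK15 by its one probe set. The OBGF400 arrays were higher without overlap, by 0.31 (SE 0.02), or 1.24-fold. These values are close to 16.11, the highest of the table, and whether the signal was still proportional to RNA there was not tested. Ferritin heavy chain has near-identical copies in mammalian genomes, and the table does not show whether they share this signal.

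FTL, the chain that helps to form the iron core, had 2 probe sets that disagreed in direction. The brighter one read 14.91, 14.94 and 14.90 in OBGF400 and 15.00, 15.14 and 15.05 in PK15, lower in OBGF400 by 0.15 on average (difference -0.15, SE 0.04). The dimmer one read 10.77, 10.26 and 10.43 in OBGF400 and 9.22, 9.37 and 9.58 in PK15, a difference of 1.10 (SE 0.18). Neither probe set overlapped between the lines, so for FTL no single direction was measured. Both FTL differences and that of FTH1 were small beside the TFRC difference of 6.54.

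HMOX1, which opens the heme ring and frees its iron, was moderately higher in OBGF400. Its one probe set read 9.05, 8.50 and 8.44 in OBGF400 and 7.61, 7.92 and 7.75 in PK15. The lines did not overlap, and the difference of 0.90 (SE 0.21), or 1.87-fold, was larger than the SD between arrays of 0.34 in OBGF400 and 0.15 in PK15 (n = 3). OBGF400 replicate 1 was the highest array, at 9.05. The globin gene HBB, whose protein carries heme, was also higher in OBGF400 (10.24 ± 0.13 against 9.37 ± 0.23, SD, n = 3), while the erythroid genes KLF1 and AHSP were at the floor in both lines. Its part in the HMOX1 difference was not tested.

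The iron regulatory proteins gave no common direction. ACO1, which is a cytosolic aconitase when it carries an iron-sulfur cluster and binds RNA without it, had 3 probe sets. The brightest read 13.50, 13.49 and 13.49 in OBGF400 and 13.16, 13.14 and 13.21 in PK15, a difference of 0.32 (SE 0.02). The dimmest read 6.20, 5.88 and 5.41 against 4.95, 4.08 and 5.31, also higher in OBGF400 (1.05, SE 0.43), with the lowest OBGF400 array only just above the highest PK15 array. The middle one went the other way, with 8.86, 8.56 and 8.49 against 10.01, 10.15 and 10.25, a difference of -1.50 (SE 0.13). No ACO1 probe set overlapped between the lines, so the probe sets contradict each other beyond their spread. IREB2, which is degraded when iron is plentiful, was lower in OBGF400. Its one probe set read 7.47, 7.61 and 7.44 against 7.90, 8.31 and 8.32, a difference of -0.67 (SE 0.15), without overlap.

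Of the 8 measured genes, 7 were above the floor by at least 1 probe set, and those 7 also passed the filters on low values. The filters use the mean over all 6 arrays. TFRC, at 2.88 in PK15, passed the one at the median (4.63) only through its OBGF400 arrays. By the brightest probe set of each gene, 4 were called higher and 2 lower in OBGF400 by limma (adjusted p under 0.05). Over all 6765 genes, 60.8% were called, 23.9% higher and 36.8% lower. Of the 8 genes, 6 had no overlap between the lines' arrays, as had 66.9% of all genes. By probe set, 8 of 15 were called, 5 higher and 3 lower, where 41.9% of all 23999 probe sets were called, 20.2% higher and 21.7% lower. The members were chosen on this contrast, and these counts are given for completeness.

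The direction of the small differences depended on how the arrays were scaled, and that of TFRC did not. Aligning the arrays on the hybridization controls took the median over all genes, -0.002 as deposited, to 0.82, and aligning them on the poly-A controls dap and thr took it to -0.86. TFRC was then higher by 7.36 (SE 0.25) and 5.69 (SE 0.24). FTH1 differed by 1.13 and -0.54, the brighter FTL probe set by 0.67 under the first and by a negative value under the second, the brightest ACO1 probe set by 1.14 and -0.54, and IREB2 by 0.15 and -1.53, so the direction of each of these turned with 1 of the scalings. The brightest SLC11A2 probe set, at -0.15 as deposited, differed by 0.67 and -1.01. HMOX1 stayed positive at 1.73 and 0.05 (SE 0.32), as did the dimmer FTL probe set at 1.92 and 0.24 (SE 0.30) and the dimmest ACO1 probe set at 1.87 and 0.19 (SE 0.51), and for all 3 the second value was smaller than its error. The middle ACO1 probe set stayed negative (-0.68 and -2.36).

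**Figure D2:**
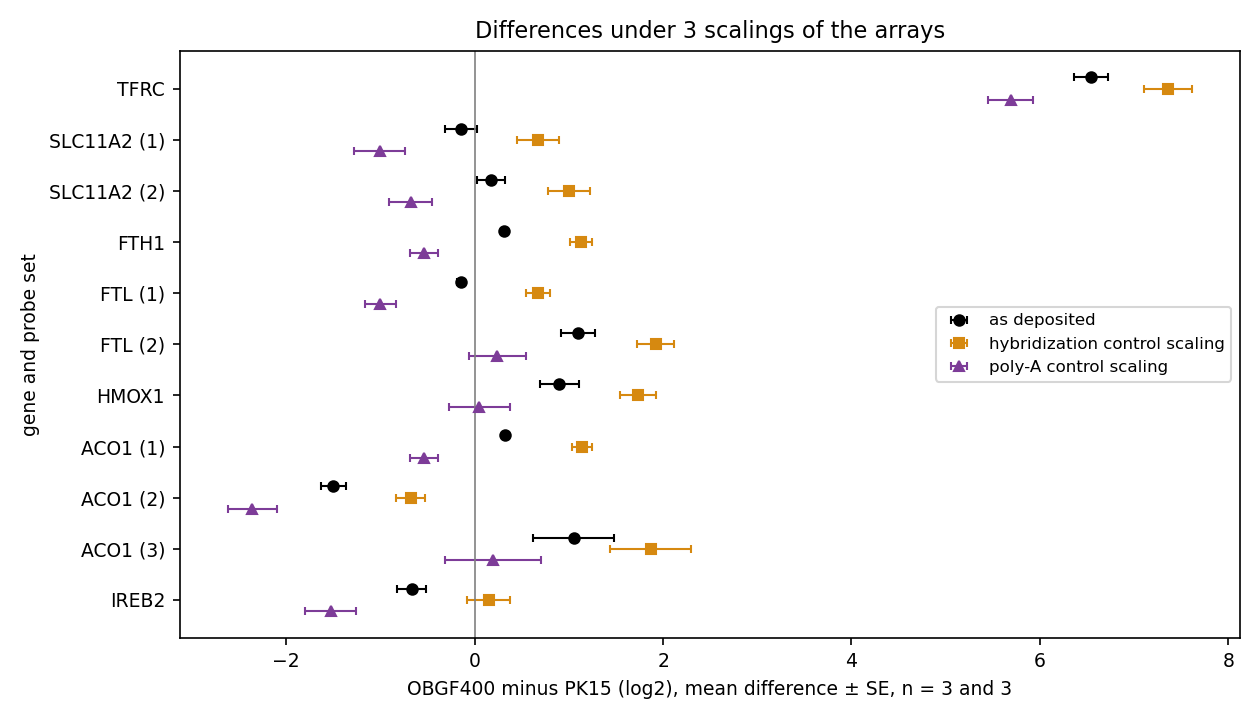
Difference between the lines (OBGF400 minus PK15, log2, x axis, mean ± SE, n = 3 and 3) for the 11 probe sets above the floor (y axis), as deposited (black), after scaling on hybridization controls (orange) and on poly-A controls (purple). TFRC lies between 5.69 and 7.36 under these 3 scalings, and FTH1, the brightest FTL and ACO1 probe sets, the SLC11A2 probe sets and IREB2 lie on either side of 0 depending on the scaling.

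A shift of a whole array cancels when 2 genes are compared within it. The log2 ratio of TFRC to FTH1 was higher on the OBGF400 arrays than the PK15 mean by 6.02, 6.56 and 6.10, while the PK15 arrays stayed within 0.03 of their mean. The change in the ratio was 6.23 (SE 0.17) against FTH1 and 6.69 (SE 0.18) against the brightest FTL probe set. Against the other FTL probe set it was 5.44 (SE 0.34). The ratio of receptor to ferritin mRNA signal was thus higher in OBGF400 with each of these ferritin probe sets. A ratio shows unequal change and does not show that ferritin was the same in both.

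The ratio of TFRC to the remaining genes changed by similar amounts. Each change, also that against ferritin, holds the same difference of 6.54 from the single TFRC probe set. The ratios are therefore not separate readings of TFRC. It was 6.69 (SE 0.13) against SLC11A2, 5.63 (SE 0.35) against HMOX1, 6.22 (SE 0.19) against ACO1 and 7.21 (SE 0.19) against IREB2, each by the brightest probe set. Over the 3 ACO1 probe sets it ran from 5.49 (SE 0.47) to 8.04 (SE 0.27). With 32 added to the linear values the changes were 3.88 against FTH1, 4.34 against FTL and 3.37 against HMOX1, smaller but in the same direction. On the export side no such ratio could be formed, since SLC40A1 and the ferroxidases CP and HEPH, which load exported iron onto transferrin, have no probe set with a single matching symbol here.

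**Figure D3:**
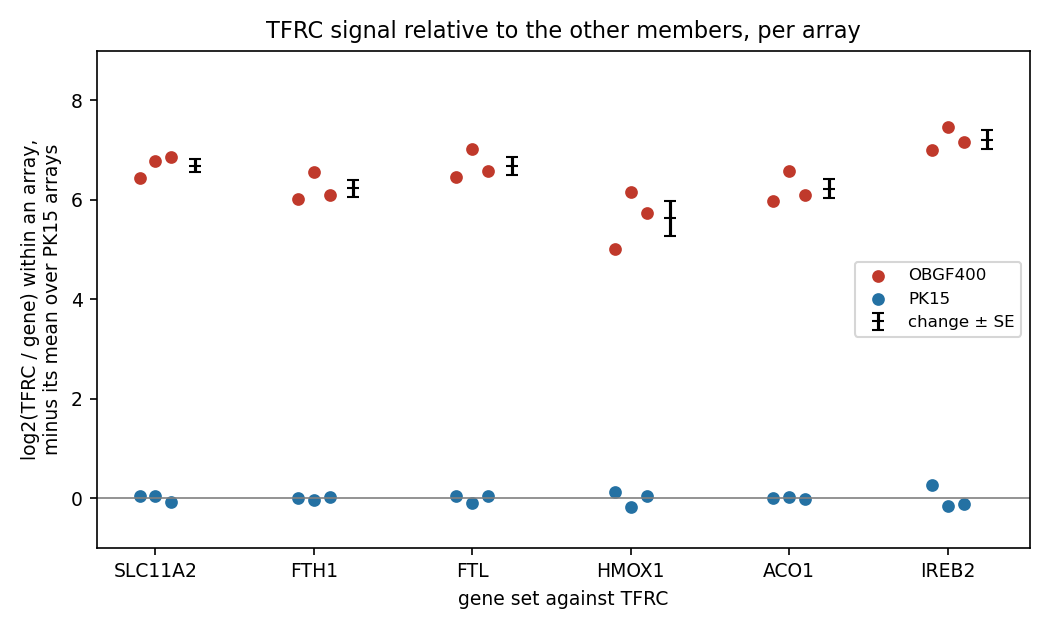
Log2 ratio of TFRC to each other member within an array, minus its mean over the PK15 arrays (y axis), for the brightest probe set of 6 genes (x axis). Points are arrays (OBGF400 red, PK15 blue, replicates 1 to 3 from left to right) and black marks the change ± SE. The OBGF400 arrays lie between 5.01 and 7.47 for these genes, and the PK15 arrays around 0.

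By the profile over the 6 arrays, the 5 genes most like TFRC were FAP, ARMCX3, CRABP2, TPCN2 and PHYH. Likeness was the root-mean-square difference of values centred on each gene's mean, which was 0.10 (log2) for FAP and 0.19 for PHYH. Their differences ran from 6.41 for TPCN2 to 6.62 for ARMCX3. With 2 lines, such a profile says little more than that the gene has a difference of this size.

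Other genes of iron and heme handling were taken from 9 lists by role. Of 142 listed genes, 75 were measured, and 26 of them (34.7%) were called higher in OBGF400, 29 (38.7%) lower with no call for the other 20 (by limma, with p adjusted over all 6765 genes and a threshold of 0.05), beside 23.9% and 36.8% of all genes. The median difference of the 75 genes was -0.004, beside -0.002 over all genes. After hybridization control scaling 47 were higher and 16 lower, where 84.9% of all genes were called (66.3% higher, 18.6% lower). After poly-A control scaling 9 were higher and 50 lower, where 88.4% of all genes were called (11.3% higher, 77.1% lower). These shares of all genes are the background for the count of each list below. Of the 75 genes, 9 were at the floor in both lines, and their sign under a control scaling came from the scaling. For several genes with more than 1 probe set, the value rested on the brightest one, and averaging the probe sets moved it by more than 1.5 times. The averaged difference was 2.14 for SLC39A14, 1.85 for HIF1A, -0.50 for FBXL5, -0.54 for EGLN1, -2.55 for FDXR and 0.75 for SLC25A38. It was -0.74 for ALAS1, -2.42 for SLC46A1, 1.33 for GCLC, -1.14 for GCLM and -0.19 for GSR. These 11 kept their call and direction. Of the genes named below, FBXL5, SLC25A38, SLC46A1, GCLM, ME1 and CDC42BPA were each called by 1 of 2 probe sets, and GSR by 1 of 3.

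Among uptake genes, 2 of 6 measured rose in OBGF400 and 0 fell, with 6 higher and 0 lower after hybridization control scaling and 2 higher and 4 lower after scaling to poly-A controls. STEAP1, of the STEAP family of metalloreductases, had means of 12.90 ± 0.02 (OBGF400) and 7.68 ± 0.31 (PK15; SD, n = 3) and differed by 5.22 (SE 0.18, limma adjusted p = 2.86e-05). SLC39A14 (ZIP14), a transporter of iron that is not bound to transferrin, was at 6.58 ± 0.33 and 2.24 ± 0.09 (SD, n = 3), a difference of 4.34, or 1.80 with 32 added (limma adjusted p = 6.12e-05), by 1 of its 2 probe sets. Both stayed higher under the control scalings (STEAP1 by 6.05 and 4.37, SLC39A14 by 5.17 and 3.49). LTF, a transferrin relative, and STEAP4 were at the floor in both lines, and in the counts after control scaling they took their sign from the scaling. STEAP3, the endosomal reductase of the transferrin route, had no probe set with a single matching symbol here.

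Among storage and iron chaperone genes, 1 of 4 was higher and 1 lower, with 3 higher and 1 lower after hybridization control scaling and 0 higher and 4 lower after scaling to poly-A controls. NCOA4, the receptor that takes ferritin to lysosomes for breakdown, was at 11.72 ± 0.09 and 11.73 ± 0.01 (SD, n = 3), a difference of -0.01 (limma adjusted p = 0.98), and control scaling gave 0.81 (hybridization) and -0.87 (poly-A). GLRX3, a cytosolic glutaredoxin that handles iron-sulfur clusters, was lower by 2.07 on average (difference -2.07, SE 0.04, limma adjusted p = 3.89e-06) and stayed lower under both control scalings (-1.24 and -2.92). PCBP2, a poly(rC)-binding protein that also serves as an iron chaperone, was higher by 0.39 by the probe set used, but of its 3 probe sets 1 was called higher and 1 lower, and the difference was -0.46 after poly-A control scaling.

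In the list of export and systemic control, 6 of 8 genes rose and 0 fell, with a median difference of 1.00, with 8 higher and 0 lower after hybridization control scaling and 2 higher and 1 lower after scaling to poly-A controls. Of the 6 that rose, 5 belong to the BMP branch that controls hepcidin in liver (ACVR1, ID1, SMAD1, SMAD4 and BMPR1A), and the other is APP, whose protein binds ferroportin. The hepcidin gene itself, HAMP, was near the floor in both lines (2.17 against 2.31 on average). The BMP genes were led by the type I receptor ACVR1 (2.93, SE 0.22), the BMP target ID1 (1.85, SE 0.17) and the signal transducer SMAD1 (1.21, SE 0.18). Their limma adjusted p-values were 0.000302, 0.000518 and 0.00295. Under poly-A control scaling ACVR1 (2.08) and ID1 (0.99) stayed higher, and SMAD1 (0.35) was not called. Without a measured exporter, this list holds no direct reading of iron export.

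All 6 measured genes of iron sensing and IRP turnover differed, 4 higher and 2 lower, and the counts were 4 and 1 after hybridization control scaling and 1 and 2 after poly-A control scaling. FBXL5, the iron-sensing ligase adaptor that marks IREB2 for degradation, averaged 9.54 ± 0.07 (OBGF400) and 10.55 ± 0.14 (PK15; SD, n = 3) and so differed by -1.01 (limma adjusted p = 0.000596). After hybridization control scaling it was -0.18 and not called. The hypoxia factor EPAS1, whose mRNA carries an iron-responsive element, was higher by 3.96 (SE 0.15, limma adjusted p = 3.73e-05), and by 4.78 and 3.10 under the control scalings. HIF1A (1.20) and the ligase scaffold CUL1 (1.12) were higher, and neither was called under poly-A control scaling (0.34 and 0.26). The prolyl hydroxylase EGLN1, an iron-dependent enzyme that marks HIF proteins for degradation, was lower (-1.24, SE 0.15) by 1 of its 3 probe sets, and by -0.42 under hybridization control scaling.

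A list of 17 measured genes covered mitochondrial iron and iron-sulfur cluster assembly, in mitochondria or in the cytosol. Of these, 12 were lower in OBGF400, where 36.8% of all genes were, 2 were higher and 3 had no call. The cytosolic assembly genes FAM96A (-1.42), CIAPIN1 (-1.29), FAM96B (-0.78), NUBP1 (-0.73) and NUBP2 (-0.64) were among the lower ones. MMS19 and NDOR1, also cytosolic, had no call. The median difference of the 17 genes was -0.73, beside -0.002 over all genes. With hybridization control scaling 6 were lower and 5 higher, where 18.6% and 66.3% of all genes were. With poly-A control scaling 15 were lower and 0 higher, where 77.1% and 11.3% of all genes were. The largest falls were those of BOLA3 (-1.75, SE 0.09), which helps to pass clusters to mitochondrial enzymes, and of the electron donors FDXR (-1.56, SE 0.14) and FDX1 (-1.44, SE 0.07). These 3 stayed lower under both control scalings. The mitochondrial iron importer SLC25A37 (mitoferrin 1) was higher by 0.72 and the assembly factor ISCA1 by 0.58, and both turned under poly-A control scaling (-0.14 and -0.27). For SLC25A37, 1 of 2 probe sets was called, and their mean differed by 0.27 and was not called (limma adjusted p = 0.217).

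Heme synthesis genes went both ways, with 4 of 10 higher and 4 lower, and 6 and 2 or 1 and 6 after hybridization or poly-A control scaling. ALAS1, the rate-limiting first enzyme outside red cells, averaged 8.95 ± 0.09 (OBGF400) and 10.10 ± 0.07 (PK15; SD, n = 3) and so differed by -1.15 (limma adjusted p = 0.00013), and -0.32 without a call under hybridization control scaling. The transporters SLC25A39 (-2.51, SE 0.14) and ABCB6 (-2.34, SE 0.15) were lower under each scaling tried. SLC25A38, a glycine carrier that feeds heme synthesis, was higher by 1.50 (SE 0.18) and by 0.65 under poly-A control scaling. UROD (1.26) and PGRMC1 (1.15) were higher, and neither was called under poly-A control scaling. FECH, which inserts iron into the ring, differed by -0.16 (SE 0.11, limma adjusted p = 0.256), with overlapping arrays, and by 0.67 and -1.01 under the control scalings.

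On the side of heme uptake and breakdown, 5 of 10 measured genes were lower in OBGF400 and 0 higher. Of the other 5, 4 (FLVCR2, HPX, HP and CD163) were at the floor in both lines. After scaling to poly-A controls 10 were lower and 0 higher, and after hybridization control scaling 4 were lower and 5 higher, of which the genes at the floor took their sign from the scaling. The constitutive heme oxygenase HMOX2 read 5.58, 5.67 and 5.70 in OBGF400 and 6.72, 7.17 and 6.79 in PK15, a difference of -1.24 (SE 0.14, limma adjusted p = 0.00121), opposite in sign to HMOX1 as deposited. BLVRA, the biliverdin reductase that follows heme oxygenase, was also lower (-1.62, SE 0.10, limma adjusted p = 0.00015). Both stayed lower under the control scalings (HMOX2 by -0.42 and -2.10, BLVRA by -0.80 and -2.48). SLC46A1, a folate transporter first described as a heme carrier, differed by -4.27, or -1.87 with 32 added, by 1 of its 2 probe sets. Its OBGF400 arrays (2.63, 2.37 and 2.34) lay close to the floor. HEBP2, a heme-binding protein, differed by -3.43 (SE 0.12).

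HMOX1 and the ferritin genes are known targets of the stress factor NRF2 and of its opponent BACH1, neither of which had a probe set with a single matching symbol here. Of 9 measured genes among the partners and other targets of NRF2, 6 were higher and 3 lower, with 6 higher and 1 lower after hybridization control scaling and 3 higher and 4 lower after scaling to poly-A controls. TXNRD1 (2.71, SE 0.22), GCLC (2.16, SE 0.19) and NQO1 (1.79, SE 0.10) rose, with limma adjusted p-values of 0.000398, 0.000459 and 0.00011, and stayed higher under the control scalings. GCLM, the partner subunit of GCLC in glutathione synthesis, was lower (-2.29, SE 0.21). ME1 (-0.82) and GSR (-0.67) were lower as deposited and differed by 0.00 and 0.15 under hybridization control scaling.

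The last list held other genes whose mRNA carries an iron-responsive element or is a reported IRP target. Of 8 measured, 3 were higher and 2 lower, and 3 (ALAS2, HAO1 and SLC11A1) were at the floor in both lines. After hybridization control scaling 7 were higher and 1 lower, and after scaling to poly-A controls 1 was higher and 5 lower. In these counts the genes at the floor took their sign from the scaling. Beside EPAS1, the kinase CDC42BPA was higher by 0.81 and the amyloid precursor gene APP by 0.64, and these turned under poly-A control scaling (-0.04 and -0.21). SDHB, a subunit of succinate dehydrogenase, was lower by 1.20 on average (difference -1.20, SE 0.12). PFN2 differed by -0.28 (limma adjusted p = 0.0258). Its call was lost without OBGF400 replicate 2 (-0.29) or PK15 replicate 1 (-0.28), 2 (-0.28) or 3 (-0.27), with the replicate block (limma adjusted p = 0.0774) and at a threshold of 0.01, and hybridization control scaling gave 0.55.

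**Figure D4:**
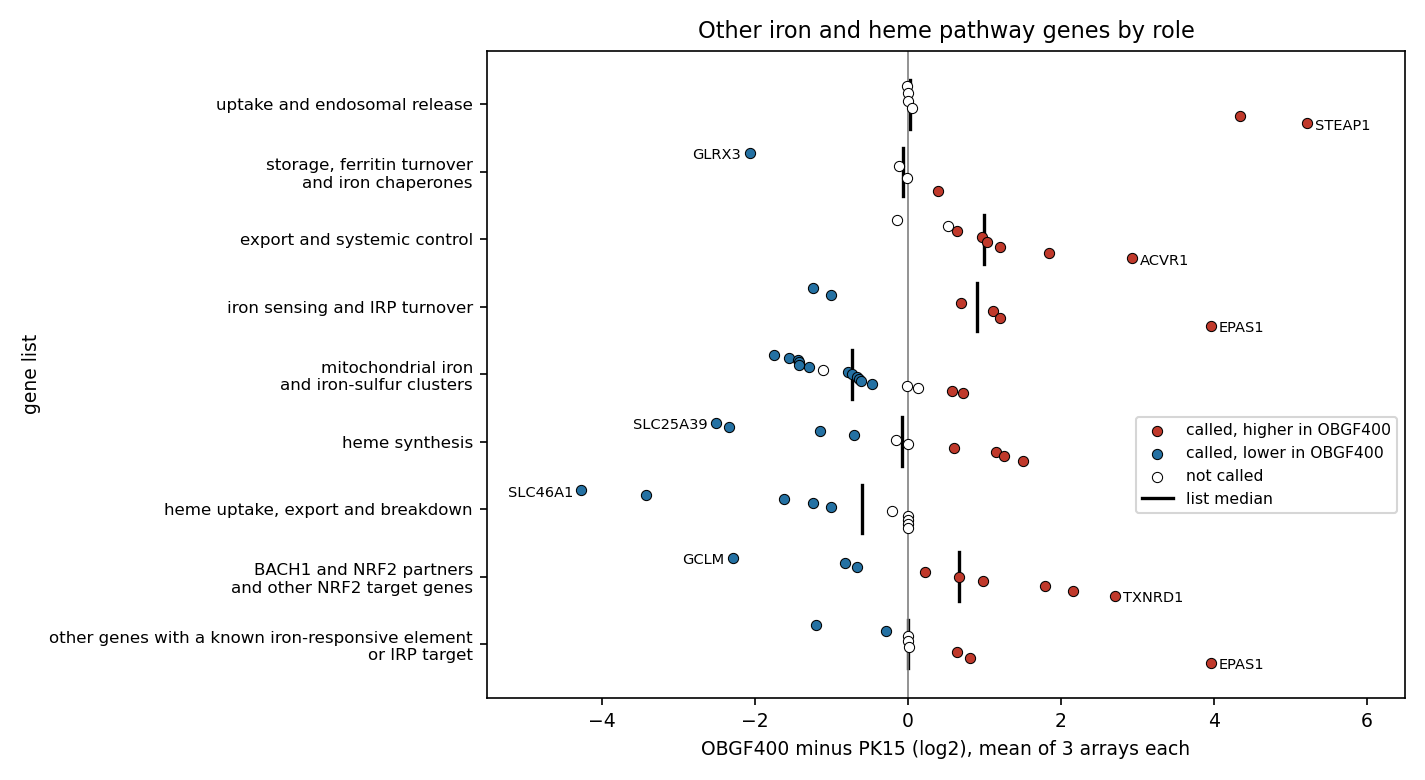
Difference between the lines (OBGF400 minus PK15, log2, x axis, means of 3 arrays each) for the measured genes of 9 lists by role (y axis), as deposited, with called genes filled red (higher) or blue (lower), others white, and black bars for list medians. The genes of mitochondrial iron and iron-sulfur clusters lie mostly below 0 (12 of 17 called lower, against 6 under hybridization control scaling), and STEAP1 and SLC39A14 lie farthest to the right among uptake genes.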

How the data were processed

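The authors deposited 1 table of log2 signals, with a row per probe set and a column per array. The affy package is credited in the submitters' processing notes. How background, summarisation and normalization were handled is not given in the sources used here. No detection calls were used. Per the labels' protocols, one-cycle 3′ labelling attached biotin to 8 µg of RNA per pool. The number of arrays limits the precision.

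Control probe sets (124 of 24123) were left out. Of the 23999 tested, 10069 had 1 symbol, 198 several and 13732 none in the platform annotation. Entrez numbers matched 9961 of these symbols to RefSeq (Sscrofa11.1), which renamed 0. The brightest probe set over the 6 arrays stood for each of the 6765 genes. OBGF400 was set against PK15 by a two-sided limma 3.58.1 fit (lmFit, eBayes) run in R 4.3.3, and p-values were adjusted by Benjamini-Hochberg over all genes or probe sets. Tables and plots used Python 3.11.15. With 3 arrays against 3, an exact permutation test of 1 gene cannot go below 0.1. The fit was also run on simulated data with independent normal noise and no floor. These data differ from that setting, so the run does not vouch for the calls.

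Members and lists were chosen with earlier results of these data known. Named genes were the members, in each list up to 3 called genes that rose most and 3 that fell most, fixed names (CP, HEPH, NCOA4, FBXL5, STEAP3, ALAS1, FECH, HMOX2, BLVRA, BACH1, NFE2L2 and NQO1), up to 3 examples of each marker result and the 5 profiles most like TFRC. Other genes named singly were chosen after their values were seen. No sequences or coordinates were used here.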

Additional observations from a re-analysis of the deposited data

How the results depend on the processing

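The alternatives were quantile normalization, median centring, scaling on 27 hybridization or 18 poly-A (dap and thr) control probe sets, adding 32 to the linear values, filters at the 25th percentile or at the median, array weights, a robust variance with a trend, averaging the probe sets of a gene, a stricter threshold (adjusted p under 0.01), the replicate block and leaving out each array. The number of probe sets called was 10060 as deposited, 19464 after centring on medians, 21558 after scaling to hybridization controls and 21593 after scaling to poly-A controls. Many probe sets at the floor in both lines are then shifted by a constant. The number of genes called (4112) stayed within 1.5 times under each alternative, from 3449 to 5982, but genes called higher went from 1620 to 4487 (hybridization) and 763 (poly-A), and genes called lower from 2492 to 1259 and 5219. Iron and heme pathway genes called higher went from 26 to 47 and 9, and those called lower from 29 to 16 and 50, under the same scalings, and stayed between 25 and 27 and between 27 and 31 under the other alternatives.

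The TFRC difference was 6.54 as deposited, 7.36 and 5.69 under hybridization and poly-A control scaling, 4.19 with 32 added, and 6.36 to 6.66 leaving out each array. With 32 added, the change in the TFRC ratio was 3.88 against FTH1, 4.34 against FTL, 3.37 against HMOX1, 4.28 against SLC11A2, 3.87 against ACO1 and 4.78 against IREB2. With the mean of probe sets it was 6.58 against ACO1 and 6.07 against FTL. Directions turned under hybridization control scaling for FTL (0.67), SLC11A2 (0.67), IREB2 (0.15), ME1 (0.00), GSR (0.15), PFN2 (0.55), NCOA4 (0.81) and FECH (0.67), under poly-A control scaling for FTH1 (-0.54), ACO1 (-0.54), PCBP2 (-0.46), SLC25A37 (-0.14), ISCA1 (-0.27), CDC42BPA (-0.04) and APP (-0.21), and with the mean of probe sets for PCBP2 (-0.44), ACO1 (-0.05) and FTL (0.47). Each control scaling moves all values of an array by the same amount. It therefore shifts every difference alike, taking the median over all genes to 0.82 (hybridization) or -0.86 (poly-A). Small differences of the opposite sign turn with it. The turns with the mean of probe sets came from probe sets of a gene that disagreed in direction. Why the control signals differed between the lines was not tested.

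Arrays with the same replicate number did not deviate together (r = 0.04, 0.01 and 0.02 across probe sets), so the numbers were not taken as pairs. With the replicate block, 8661 probe sets and 3782 genes were called, and 53 of the 75 pathway genes in place of 55. Of the named genes, PFN2 alone lost its call with the block. The median SD between arrays was 0.21 (OBGF400) and 0.26 (PK15) for probe sets with means of 4 to 6, and 0.06 and 0.09 from 12 up, so dim genes are the less precise.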
